A study of Mus musculus with 206 samples.

Results

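The striatum-only consensus regions are the H3K27ac regions of the striatum consensus list that overlapped, by as little as 1 bp, no region in the consensus lists of prefrontal cortex (PFC), hippocampus or hypothalamus. They numbered 32669 of 60013 striatum regions (54.4%), out of 108274 consensus regions in the 4 brain regions (18272 in PFC, 16201 in hippocampus and 13788 in hypothalamus). The members were chosen by measured peaks, through the consensus lists built from them, so the brain regions in which they carried a peak are described without a test. The name holds for the consensus lists and not for single libraries. The median striatum-only region had a peak in 28.9% of striatum libraries, 30.2% of PFC libraries, 13.6% of hippocampus libraries and 19.5% of hypothalamus libraries, and 29 members had no peak in any library of the 3 other brain regions.

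H3K27ac was mapped by MOWChIP-seq, a microfluidic chromatin immunoprecipitation for small samples, in about 10000 NeuN+ neuronal nuclei per library from adult wild type C57BL/6NTac mice of both sexes. Dams carried minipumps with morphine (MOR) at 10 mg/kg per day or saline (SAL), and their pups, raised by drug-naive foster mothers, received the same agent by injection, for morphine 10 mg/kg at each of 2 injections a day, on postnatal days 1 to 14. As adults the offspring were given lipopolysaccharide (LPS), a bacterial endotoxin, or saline, and brains were punched 2 h later. Each animal gave 1 library per brain region. The striatum had 15 MOR-LPS libraries (7 female, 8 male), 7 MOR-SAL (4 female, 3 male), 13 SAL-LPS (10 female, 3 male) and 10 SAL-SAL (6 female, 4 male), named here by perinatal and then adult agent. The library kit was xGen 2S for PFC and ThruPLEX elsewhere, so kit and brain region cannot be told apart when PFC is set beside the rest.

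Acetylation of lysine 27 on histone H3 marks promoters and enhancers in active use, and enhancers differ more between cell types than promoters do. Most striatal neurons are GABAergic projection neurons of a direct pathway, which carry the D1 dopamine receptor with dynorphin and substance P, or of an indirect pathway, which carry the D2 dopamine receptor and the adenosine receptor encoded by Adora2a with enkephalin. In both, dopamine and adenosine receptors act on adenylyl cyclase and cAMP, and opioid receptors and peptides act on the same circuit.

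Sequences are shown for 12 of these regions, as 251 bases of mm10 (GRCm38.p6), plus strand, centred on the median summit of the peaks. The first 8 lie nearest to genes that define striatal projection neurons, at chr13:54032580-54032830 (Drd1), chr9:49360519-49360769 (Drd2), chr16:43754493-43754743 (Drd3), chr10:75340438-75340688 (Adora2a), chr4:4199932-4200182 (Penk), chr2:129712501-129712751 (Pdyn), chr6:7603378-7603628 (Tac1) and chr11:98339698-98339948 (Ppp1r1b). They are shown because their genes mark striatal neurons, although several had a peak in more libraries of another brain region than of striatum. The Drd3 window lies in a promoter region and the Drd2 window in an intron. The other 4 carry results given further on: the member with a peak in most striatum libraries (chr16:70093525-70093775), the member leading MOR-LPS against SAL-LPS (chr9:41766389-41766639), the 1 member called between MOR-SAL and SAL-SAL (an intron of Mdga2, chr12:67142696-67142946) and the Kdm6a promoter member that differed by sex (chrX:18161782-18162032). Capitals mark matches, on either strand, to any of 11 motifs searched, of which AP-1 (TGANTCA), MEIS/TGIF (TGACAG) and SP/KLF (GGGCGGG) occurred here.
Drd1: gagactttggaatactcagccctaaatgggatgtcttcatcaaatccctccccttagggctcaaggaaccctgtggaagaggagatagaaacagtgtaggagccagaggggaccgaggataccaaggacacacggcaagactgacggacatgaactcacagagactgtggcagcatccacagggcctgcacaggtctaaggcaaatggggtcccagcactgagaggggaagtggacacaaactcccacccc
Drd2: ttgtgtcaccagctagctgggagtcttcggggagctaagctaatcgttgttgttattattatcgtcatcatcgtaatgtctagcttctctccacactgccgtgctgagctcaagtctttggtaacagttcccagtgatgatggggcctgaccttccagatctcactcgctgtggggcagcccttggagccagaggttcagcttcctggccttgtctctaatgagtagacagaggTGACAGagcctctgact
Drd3: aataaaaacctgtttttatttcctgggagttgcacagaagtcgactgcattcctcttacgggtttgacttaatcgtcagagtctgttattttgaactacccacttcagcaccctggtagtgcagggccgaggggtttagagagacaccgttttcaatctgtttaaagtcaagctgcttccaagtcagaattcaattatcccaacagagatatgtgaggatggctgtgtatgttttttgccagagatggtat
Adora2a: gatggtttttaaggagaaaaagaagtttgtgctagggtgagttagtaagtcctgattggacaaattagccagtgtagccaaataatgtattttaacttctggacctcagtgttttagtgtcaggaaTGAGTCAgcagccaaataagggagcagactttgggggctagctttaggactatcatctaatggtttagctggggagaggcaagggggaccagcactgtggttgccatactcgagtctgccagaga
Penk: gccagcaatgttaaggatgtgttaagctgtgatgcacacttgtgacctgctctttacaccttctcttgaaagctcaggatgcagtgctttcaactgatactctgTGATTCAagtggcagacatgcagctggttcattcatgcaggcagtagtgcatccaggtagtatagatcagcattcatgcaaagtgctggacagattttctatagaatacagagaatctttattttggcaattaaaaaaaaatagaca
Pdyn: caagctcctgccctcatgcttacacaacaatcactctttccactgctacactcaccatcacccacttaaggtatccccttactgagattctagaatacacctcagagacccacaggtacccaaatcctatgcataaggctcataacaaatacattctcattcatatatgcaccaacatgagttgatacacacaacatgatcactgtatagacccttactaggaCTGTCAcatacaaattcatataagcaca
Tac1: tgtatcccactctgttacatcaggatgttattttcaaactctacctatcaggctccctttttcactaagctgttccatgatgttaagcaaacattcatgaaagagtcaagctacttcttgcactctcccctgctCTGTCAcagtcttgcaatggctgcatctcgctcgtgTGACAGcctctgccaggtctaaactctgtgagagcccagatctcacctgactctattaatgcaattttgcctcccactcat
Ppp1r1b: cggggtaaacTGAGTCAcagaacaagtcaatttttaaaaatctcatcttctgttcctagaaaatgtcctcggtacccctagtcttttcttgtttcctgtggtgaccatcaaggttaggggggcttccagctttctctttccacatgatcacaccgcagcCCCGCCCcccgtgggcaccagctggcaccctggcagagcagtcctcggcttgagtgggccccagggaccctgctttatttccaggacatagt
Gm49655: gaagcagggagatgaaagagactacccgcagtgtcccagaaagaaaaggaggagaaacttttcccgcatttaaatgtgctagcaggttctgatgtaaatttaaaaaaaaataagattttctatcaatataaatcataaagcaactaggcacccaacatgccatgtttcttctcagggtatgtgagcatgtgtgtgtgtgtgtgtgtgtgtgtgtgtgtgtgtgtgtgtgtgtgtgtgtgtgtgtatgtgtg
chr9 region: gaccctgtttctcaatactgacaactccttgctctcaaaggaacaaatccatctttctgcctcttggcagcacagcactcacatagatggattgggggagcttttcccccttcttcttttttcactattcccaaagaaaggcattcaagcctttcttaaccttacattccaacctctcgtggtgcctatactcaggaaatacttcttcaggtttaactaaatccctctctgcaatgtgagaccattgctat
Mdga2: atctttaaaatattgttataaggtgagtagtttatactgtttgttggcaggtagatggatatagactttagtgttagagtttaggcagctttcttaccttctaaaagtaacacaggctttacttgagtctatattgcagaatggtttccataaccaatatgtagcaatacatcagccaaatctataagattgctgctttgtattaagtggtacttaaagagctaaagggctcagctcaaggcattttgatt
Kdm6a: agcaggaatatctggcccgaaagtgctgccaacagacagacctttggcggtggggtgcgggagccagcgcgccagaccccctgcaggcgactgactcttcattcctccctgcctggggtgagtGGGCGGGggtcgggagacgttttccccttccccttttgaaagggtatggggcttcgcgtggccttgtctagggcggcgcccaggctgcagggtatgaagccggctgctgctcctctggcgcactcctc

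AP-1 matches began at base 127 of the Adora2a window and base 105 of the Penk window, and MEIS/TGIF matches at bases 135 and 171 of the Tac1 window. The Ppp1r1b window held an AP-1 match and an SP/KLF match. These motifs are common: in 301 bp windows around the summit, AP-1 matched in 11.2% of striatum-only regions and 10.5% of all striatum regions, MEIS/TGIF in 25.2% and 24.5%, and SP/KLF in 3.61% and 4.19%. The homeodomain core TAATTA matched in 8.20% of striatum-only regions, 6.41% of the 27344 striatum regions that overlapped another list and 7.39% of all striatum regions. Outside promoters the homeodomain shares were 8.83% of striatum-only regions, 7.02% of overlapping regions and 8.05% of all striatum regions. The median GC content was 46.5% in striatum-only windows and 48.8% in overlapping ones. Matches are letters in a window and were not tested for binding.

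Striatum-only regions were narrow, weak and mostly away from promoters. Their median width was 1821 bp, against 2921 bp for overlapping regions, and 12.0% lay within 1 kb of the transcription start site (TSS) of a protein-coding gene, against 20.9% of overlapping regions and 16.0% of all striatum regions. Introns held 54.9% of striatum-only regions and intergenic sequence 28.7%, against 50.9% and 23.6% of overlapping regions. The median distance to a TSS was 50066 bp, against 35259 bp. Where a library had a peak, its fold enrichment over local background averaged 4.48 ± 0.441 at striatum-only regions and 5.10 ± 0.513 at overlapping regions (SD, n = 45), and it was lower at striatum-only regions in 45 of 45 libraries. These values come from the peaks the rule used and are a description. The nearest region of another list lay a median of 16092 bp away, with quartiles of 4766 and 47101 bp.

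At the edge of the rule, regions on either side had similar median shares, while single regions differed. Just inside it, 2 members touched a region of another list without overlap. The member in an intron of Prkce (chr17:86239658-86240854), which encodes a protein kinase C, had a peak in 20% of striatum, 27.9% of PFC, 18.2% of hippocampus and 4.88% of hypothalamus libraries. Just outside, a region at the Lrrc61 promoter (chr6:48555341-48556611) overlapped another list by 1 bp and had a peak in 33.3%, 53.5%, 31.8% and 26.8% of libraries in the same order. The 170 members within 100 bp of another list had median shares of 32.2%, 34.9%, 22.7% and 19.5%, and the 88 striatum regions with an overlap of up to 100 bp had 27.8%, 24.4%, 19.3% and 24.4%.

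Single libraries carried the members unevenly. The share of the 32669 striatum-only regions with a peak averaged 32.0 ± 15.0% in striatum (SD, n = 45, range 5.10 to 61.5%), 32.9 ± 17.0% in PFC (n = 43), 19.9 ± 10.6% in hippocampus (n = 44) and 23.8 ± 10.5% in hypothalamus (n = 41). Striatum libraries held from 10811 to 109977 peaks, with a median of 57042. With each library cut to the 10000 peaks that had the highest −log10 p, the averages were 4.74 ± 1.22% in striatum, 2.91 ± 1.09% in PFC (n = 42), 1.96 ± 0.969% in hippocampus and 4.36 ± 1.05% in hypothalamus. The ranges overlapped between brain regions in full and in reduced lists. The striatum list was also the longest of the 4. When it was reduced to the 18272 regions with a peak in most striatum libraries, the length of the PFC list, 2832 of them (15.5%) overlapped no other list.

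**Figure D1:**
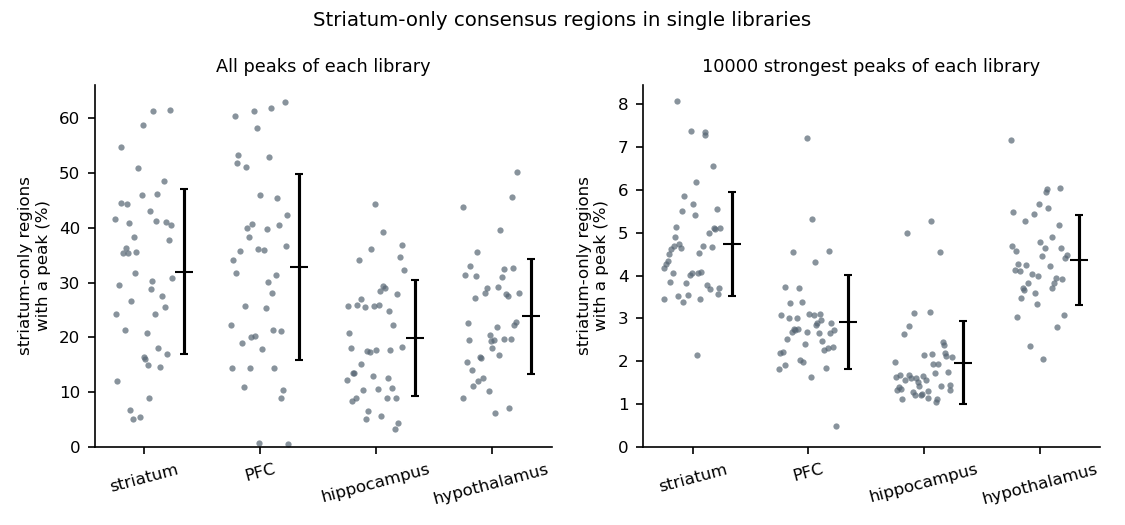
Share of the 32669 striatum-only regions with a peak in each library (%), by brain region, for full peak lists (left) and for lists cut to 10000 peaks (right), 1 point per library, with the mean and SD beside them. Striatum libraries spread from 5.10 to 61.5% in full lists and average 4.74% in reduced lists, and the other brain regions overlap with them in both.

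By the brain region with the highest share of libraries, the members fell into 4 sets. PFC was highest at 12442 members (38.1%), striatum at 10110 (30.9%), hypothalamus at 6653 (20.4%) and hippocampus at 3464 (10.6%). The sets differed in position: 2.69% of members highest in striatum were promoters, against 20.5% of those highest in PFC, 11.0% of those highest in hypothalamus and 10.6% of those highest in hippocampus. Members highest in striatum had median shares of 33.3% in striatum, 18.6% in PFC, 6.82% in hippocampus and 14.6% in hypothalamus. The 3924 promoter members had median shares of 37.8% in striatum, 60.5% in PFC, 40.9% in hippocampus and 43.9% in hypothalamus. Of all members, 717 (2.19%) exceeded every other brain region by more than 20 points and 109 (0.334%) by more than 30 points.

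The members with a peak in most striatum libraries were broad and were shared with other brain regions. The first was an 11004 bp region over the lincRNA Gm49655 (chr16:70088874-70099877), with no protein-coding TSS within 100 kb, which had a peak in 95.6% of striatum libraries, 93.0% of PFC, 77.3% of hippocampus and 61.0% of hypothalamus libraries. An intron of Wwp1, a ubiquitin ligase gene, held an 8823 bp member (chr4:19696998-19705820) with a peak in 93.3% of striatum, 58.1% of PFC, 22.7% of hippocampus and 48.8% of hypothalamus libraries. An intronic member of Lhcgr, the luteinizing hormone receptor gene (chr17:88757983-88765390), had 91.1%, 55.8%, 18.2% and 51.2% in the same order. Both of these were more frequent in striatum than in each other brain region by over 30 points. The promoters of Dennd4a (93.3% of striatum and 90.7% of PFC libraries) and Dpf2, a chromatin remodelling subunit gene (88.9% and 76.7%), were among the first 10 and were near as frequent in PFC. The widest member, 31284 bp in an intron of the kinesin gene Kif13b, had a peak in 33.3% of striatum and 67.4% of PFC libraries.

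The members with the largest excess in striatum were picked after their values were seen. The first lay at the promoter of Gm3238 inside Tspear (chr10:77766993-77771673), with a peak in 75.6% of striatum libraries, 20.9% of PFC, 6.82% of hippocampus and 14.6% of hypothalamus libraries. A member 6015 bp from Adra2b, an alpha-2 adrenergic receptor gene (chr2:127369223-127371329), had a peak in 82.2% of striatum libraries and in 41.9%, 34.1% and 24.4% of the others. The Mrvi1 promoter (chr7:110980994-110983694) had 68.9% in striatum against 14.0%, 18.2% and 29.3%.

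By number of members, the first genes were the following, beside a share of 54.4% striatum-only among all striatum regions. Afap1, an actin filament binding protein gene, had 20 members among its 29 striatum regions, and Sgk1, a kinase gene induced by glucocorticoids, had 19 of 25. Aebp2 and the ephrin receptor gene Epha4 had 17 each, and Gabrb2, a GABA-A receptor subunit gene, and Grin2b, an NMDA receptor subunit gene, had 16 each. Sgk1 members had median shares of 33.3% in striatum, 23.3% in PFC, 6.82% in hippocampus and 12.2% in hypothalamus. Members were nearest to 9346 genes in all, and 10906 had no protein-coding TSS within 100 kb.

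At genes of striatal projection neurons, the members were frequent in striatum and PFC and rare in hippocampus and hypothalamus. Of 269 striatum regions at the 38 listed genes, 122 (45.4%, against 54.4% of all striatum regions) were striatum-only and lay at 33 of the genes. Their median shares were 35.6% in striatum, 46.5% in PFC, 4.55% in hippocampus and 4.88% in hypothalamus. Of the 122, 102 had a higher share in striatum than in both hippocampus and hypothalamus, against 55.4% of all members. PFC was above striatum at 79 of the 122, against 48.8% of all members. The list holds known striatal genes and was chosen for striatum, so its medians are a description of these regions. In bulk nuclei, fewer cells of a type and less acetylation per cell cannot be told apart.

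For genes with several members, the one with a peak in most striatum libraries is given. For the dopamine receptors, 1 of 5 members assigned to Drd1, the receptor of the direct pathway, spanned 8052 bp (chr13:54030956-54039007) and had a peak in 55.6% of striatum, 72.1% of PFC, 18.2% of hippocampus and 2.44% of hypothalamus libraries. An intronic member of Drd2, the receptor of the indirect pathway (chr9:49359867-49361713), had a peak in 13.3%, 32.6%, 0% and 19.5% in the same order. It was less frequent in striatum than in PFC, as were most members of the list, and also less frequent than in hypothalamus. A member 22646 bp from the TSS of Adora2a, the adenosine receptor gene of the indirect pathway, had 37.8%, 58.1%, 2.27% and 2.44%.

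At the peptide genes, the medians over 6 members at Penk, the enkephalin precursor, were 46.7% in striatum, 58.1% in PFC, 2.27% in hippocampus and 2.44% in hypothalamus. Those over 3 members at Pdyn, the dynorphin precursor, were 24.4%, 41.9%, 13.6% and 0%, and those over 3 at Tac1, the substance P precursor, 46.7%, 48.8%, 0% and 0%. The Penk member most frequent in striatum lay 59174 bp from the TSS and had a peak in 66.7% of striatum, 67.4% of PFC, 2.27% of hippocampus and 2.44% of hypothalamus libraries. The most frequent members at Pdyn and Tac1 had 46.7% and 55.6% in striatum, 62.8% and 48.8% in PFC, 11.4% and 2.27% in hippocampus and 0% and 0% in hypothalamus. The member at Ppp1r1b, which encodes the dopamine-regulated phosphatase inhibitor DARPP-32, had 31.1%, 34.9%, 52.3% and 9.76%, being most frequent in hippocampus.

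Downstream of the receptors, an intronic member of Adcy5, the main adenylyl cyclase gene of striatum (chr16:35207652-35209759), had a peak in 80.0% of striatum, 67.4% of PFC, 4.55% of hippocampus and 17.1% of hypothalamus libraries. The member in Pde7b, a cAMP phosphodiesterase gene, had 73.3%, 51.2%, 22.7% and 19.5%. Among transcription factor genes, the promoter member of Six3, a factor of indirect pathway neurons, had 75.6%, 60.5%, 2.27% and 9.76%, and an intronic member of Isl1, a factor of direct pathway neurons, had 57.8%, 46.5%, 0% and 4.88%. In each of these 4 the striatum share exceeded the hippocampus and hypothalamus shares by over 50 points. Of 6 members at Rgs9, a regulator of G protein signalling, the one most frequent in striatum was frequent everywhere (80.0%, 83.7%, 72.7% and 78.0%), while the medians of the 6 were 30.0%, 44.2%, 3.41% and 12.2%.

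**Figure D2:**
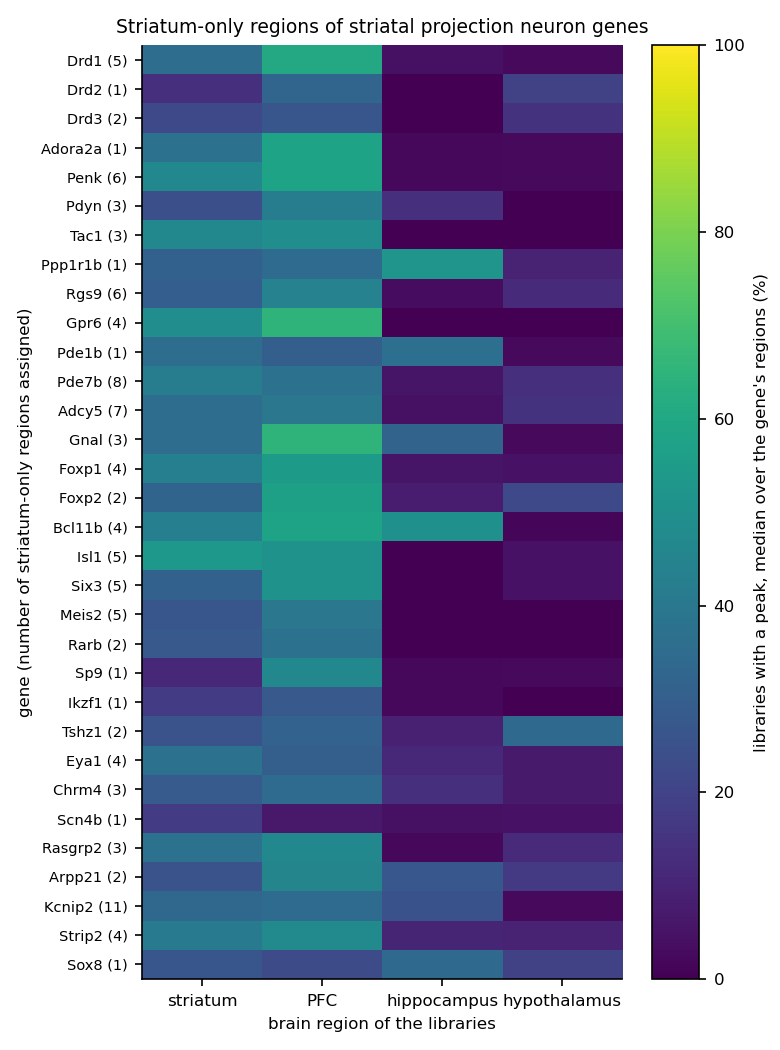
Libraries with a peak (%), as the median over the striatum-only regions assigned to each gene shown of the striatal projection neuron list (rows, with the number of regions), by brain region (columns). Most rows are brighter in striatum and PFC than in hippocampus and hypothalamus, while Ppp1r1b is highest in hippocampus (52.3%).

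Members at genes of dopamine, cAMP and opioid pathways were more frequent in striatum than in hippocampus by the median, as were all members (28.9% against 13.6%). The 95 members at dopamine and cAMP genes had median shares of 31.1% in striatum, 39.5% in PFC, 9.09% in hippocampus and 14.6% in hypothalamus, and 24 were highest in striatum, against 30.9% of all members and 37 of the 122 at projection neuron genes. The 45 members at opioid genes had 33.3%, 30.2%, 4.55% and 22.0%, and 10 were highest in striatum. Of the opioid receptors, the promoter member of Oprk1, the kappa receptor gene, had a peak in 57.8% of striatum, 48.8% of PFC, 2.27% of hippocampus and 41.5% of hypothalamus libraries. The member at Oprd1, the delta receptor gene, had 35.6%, 62.8%, 20.5% and 4.88%, and the member at Oprm1, the mu receptor gene on which morphine acts, had 17.8%, 18.6%, 20.5% and 17.1%. Over both members at Oprm1 the medians were 13.3%, 16.3%, 11.4% and 26.8%.

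At genes that respond to glucocorticoids or belong to the clock, 33 of 58 members were highest in striatum, against 30.9% of all members. The 58 lay at 11 of the 19 listed genes, and 19 of them were assigned to Sgk1 alone. A Fkbp5 intron, in a chaperone gene of the glucocorticoid receptor (chr17:28446523-28448778), had a peak in 66.7% of striatum, 48.8% of PFC, 13.6% of hippocampus and 46.3% of hypothalamus libraries. The leading Sgk1 member (chr10:21803747-21807080) had 73.3%, 74.4%, 6.82% and 2.44%. The 132 members at genes of the glutamatergic synapse were infrequent, with medians of 22.2% in striatum, 23.3% in PFC, 18.2% in hippocampus and 18.3% in hypothalamus.

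The tissue label was checked by peaks at the promoters of marker genes in reduced lists. Projection neuron promoters carried a peak in 45 of 45 striatum libraries, but also in 42 of 42 PFC, 43 of 44 hippocampus and 39 of 41 hypothalamus libraries. They did so at an average of 18.0 ± 9.81% of the listed genes in striatum (SD), against 27.1 ± 9.96% in PFC, 8.67 ± 3.83% in hippocampus and 8.09 ± 4.14% in hypothalamus, so these markers do not tell striatum from PFC. Promoters of the 14 striatal interneuron genes and those of microglia and endothelial cells carried none in any striatum library. Oligodendrocyte promoters, which NeuN+ nuclei should not carry, had a peak at an average of 11.1 ± 21.4% of the 19 listed genes. In 6 striatum libraries this share was 42.1 to 73.7%, and in the other 39 it was 0 to 15.8%. The 6 were 5 MOR-LPS libraries (female 15-3, 16-0, 16-2 and 7-1, and male 14-4) and 1 SAL-SAL library (female 9-4), so each comparison is also given without them, an alternative chosen after seeing the data.

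The 6 libraries were picked by promoters of oligodendrocyte genes, and 9 of the 33 striatum-only regions at these genes are promoters, so their values there are a description. The 33 members at oligodendrocyte genes had a median rank, on a scale of 0 to 100 over all striatum regions of a library, of 86.8 to 92.3 in the 6 libraries and of 13.3 to 72.6 in the other 39. Of the 33, a median of 30 (range 22 to 31) carried a peak in the 6 libraries and 5 (range 0 to 32) in the other 39. The 122 members at projection neuron genes had median ranks of 21.1 to 37.9 in the 6 libraries and 19.6 to 72.1 in the others, which overlap.

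**Figure D3:**
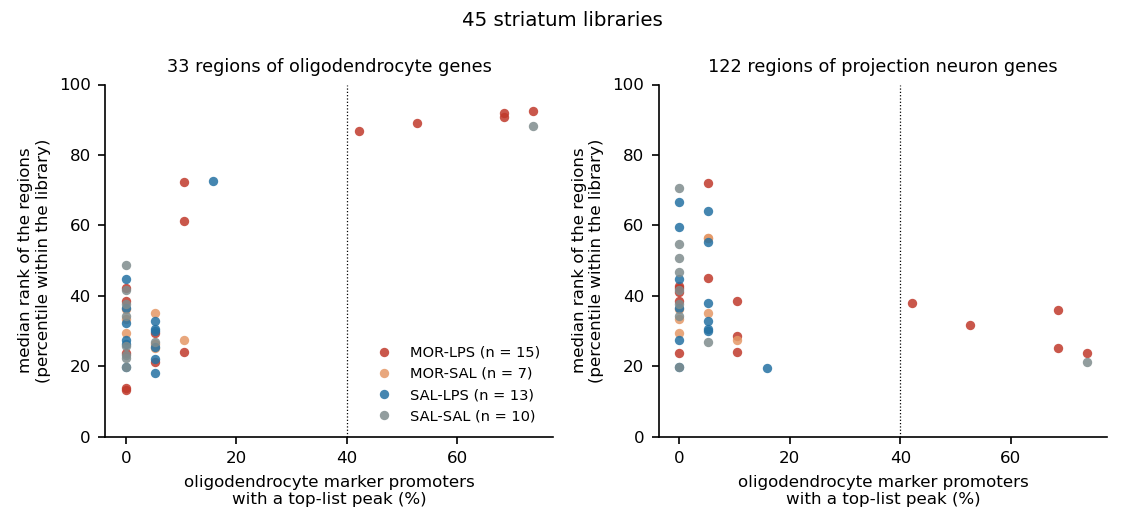
Median rank (0 to 100) of the 33 striatum-only regions at oligodendrocyte genes (left) and of the 122 at projection neuron genes (right) in each striatum library against its oligodendrocyte marker share (%), colored by treatment group, with a dotted line at 40%. The 6 libraries with a share of 42.1% or more, 5 MOR-LPS and 1 SAL-SAL, have median ranks of 86.8 to 92.3 at left, above the other 39 libraries.

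Groups were compared by the rank of each region in each library, the rank being that of its highest −log10 p among 60013 regions. Regions with no peak in a library are tied at the same rank, which was 13.3 to 44.8 over libraries and lower in longer lists, so differences at regions that often lack a peak move with the number of peaks. P-values are from limma over all 60013 regions, and a region was called at an adjusted p under 0.05. The paper's read filter kept regions that passed within any single condition. A region could thus enter the list through the group in which it was high, and its call is then not independent of that choice. This limit holds for the treatment calls named below.

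Perinatal morphine under LPS gave the largest number of calls, led by intronic and intergenic regions that carried a peak in most MOR-LPS libraries and few SAL-LPS libraries. Of the 32669 striatum-only regions, 910 (2.79%) were called, against 2.32% of all striatum regions. Ranked higher were 828 (2.53%, against 1.96% of all striatum regions) and ranked lower 82 (0.251%, against 0.365%). The median difference was −1.45 points over the members and −1.47 over all striatum regions, so the shares among the members were close to those of the whole list. The oligodendrocyte marker share had a median of 10.5% in MOR-LPS (n = 15, 0 to 73.7%), against 5.26% in SAL-LPS (n = 13, 0 to 15.8%). When the 6 libraries were left out, limma called 0 members. At an unadjusted p under 0.05 there were 1810 of 32669, against 6848 with all libraries. Of the 910, 908 kept the sign of their difference, as did 25634 of all 32669 members. The 910 were picked by large differences and both fits share most libraries, so kept signs are no independent support. Without the 6 libraries the median difference of the 828 higher members was 11.7 points, against 28.2 with all libraries. That of the 82 lower members was −26.6, against −29.2. Lists of equal length, each holding its 10811 strongest peaks, also gave 0 calls, with 2455 of 32669 members at an unadjusted p under 0.05. Such lists leave most members without a peak in most libraries. The cause of the lower count was not tested. The count was 0 too without any 1 of 7 libraries (MOR-LPS female 15-3, 16-0, 16-2 or 7-1, or SAL-LPS female 10-0, 10-2 or 4-4), and 2186 without MOR-LPS female 12-2.

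The leading region, 354756 bp from a TSS (chr9:41762131-41769541), carried a peak in 11 of 15 MOR-LPS libraries and 1 of 13 SAL-LPS libraries. Its lowest, median and highest ranks were 23.9, 87.3 and 97.8 in MOR-LPS, against 18.0, 30.0 and 78.1 in SAL-LPS, a difference of 42.9 ± 8.40 points (SE, adjusted p = 0.0265). The groups overlapped. The difference was 30.3 points without the 6 libraries (adjusted p = 0.910). Within an intron of Trim2, a ubiquitin ligase gene, a member had a peak in 10 MOR-LPS and 3 SAL-LPS libraries and differed by 41.7 ± 8.93 points (adjusted p = 0.0265). A member in Cobl, an actin nucleator gene, had a peak in 10 and 1 libraries and differed by 38.9 ± 8.33 points (adjusted p = 0.0265). The promoter of Sash1 had a peak in 8 MOR-LPS and 0 SAL-LPS libraries, with lowest, median and highest ranks of 13.3, 58.6 and 91.5 against 18.0, 27.6 and 44.8. In this last region every SAL-LPS rank was a tied rank of a region without a peak.

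Regions ranked lower carried a peak in fewer MOR-LPS libraries. An intronic member of Cadm2, a neuronal cell adhesion gene (chr16:67316232-67318572), had a peak in 1 of 15 MOR-LPS and 7 of 13 SAL-LPS libraries, with lowest, median and highest ranks of 13.3, 25.1 and 42.2 against 19.6, 48.1 and 94.9 (difference −28.9 ± 6.49, adjusted p = 0.0269). A Plcl2 intron, in the gene of a phospholipase C-like protein, had a peak in 4 and 12 libraries, with ranks of 13.3, 31.8 and 67.8 against 43.0, 77.4 and 90.3 (difference −37.4 ± 9.12, adjusted p = 0.0307). The differences at Cadm2 and Plcl2 were as large when the 6 libraries were left out (−29.8 and −36.9 points), at an adjusted p of 0.910, and smaller in lists of equal length (−12.7 and −7.05 points, adjusted p of 0.188 and 0.796).

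**Figure D4:**
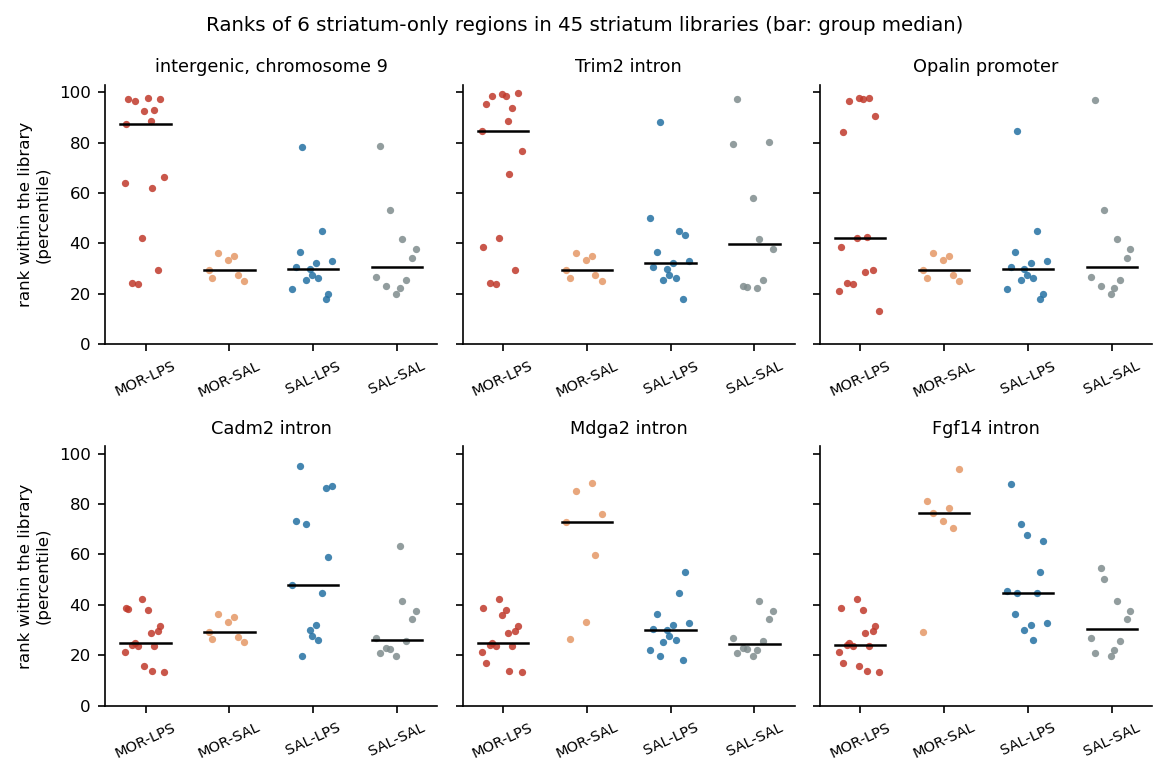
Rank (0 to 100) of 6 named striatum-only regions in each striatum library by treatment group, 1 point per library, with a bar at the group median. At the leading region on chromosome 9, the MOR-LPS median of 87.3 stands above the SAL-LPS median of 30.0, and the groups overlap.

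Among the gene lists, oligodendrocyte genes had most members ranked higher in MOR-LPS, 7 of 33, against 2.53% of all members and 1.96% of all striatum regions. The median difference of the 33 was 22.9 points, against −1.45 over all members. The 7 were the promoter of Opalin, 3 regions at Cldn11, the tight junction gene of myelin, 2 at Ugt8a, an enzyme gene for myelin galactolipids, and the promoter of Mag, a myelin adhesion gene. The Ugt8a intronic member (chr3:125877214-125901313) had ranks of 23.9, 72.6 and 99.6 in MOR-LPS against 22.1, 33.0 and 88.0 in SAL-LPS (difference 31.8 ± 9.18, adjusted p = 0.0422). The Opalin promoter had ranks of 13.3, 42.2 and 97.8 against 18.0, 30.0 and 84.5 (difference 26.9 ± 8.07, adjusted p = 0.0483). With the oligodendrocyte marker share as a term the list's median difference was 3.30 points, and without the 6 libraries it was 3.05. Both settings were defined by promoters of these same genes, and 9 of the 33 members are promoters. The smaller differences thus follow in part from that choice and are a description.

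Members at other glial genes were called in part. Of 7 members at oligodendrocyte precursor genes, 2 ranked higher (in Lhfpl3 and in Cspg4, the NG2 proteoglycan gene), as did 3 of 15 at astrocyte genes, in introns of Slc1a3, a glutamate transporter gene, and Aldh1l1, and near S1pr1. The median difference was 15.2 points over the 7 precursor members and −1.19 over the 15 astrocyte members, of which 7 were above 0. At microglia genes 0 of 4 were called, with a median of −5.66 points. The Aldh1l1 member differed by 32.8 ± 7.54 points (adjusted p = 0.0289) and by 14.5 points without the 6 libraries (adjusted p = 0.910).

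The other lists are read against the 2.79% of all members called. None of the 122 members at projection neuron genes was called, and their median difference was −6.63 points, or −3.49 without the 6 libraries. At dopamine and cAMP genes 1 of 95 was called, an intronic member of Rapgef4, a cAMP-activated exchange factor gene, with a peak in 1 of 15 MOR-LPS and 6 of 13 SAL-LPS libraries (difference −20.8 ± 6.27, adjusted p = 0.0488). No opioid gene member of 45 was called. At glucocorticoid response and clock genes 3 of 58 ranked higher, at Cdkn1a, Pdk4 and Tsc22d3. The promoter of Pdk4, a kinase gene that restrains glucose oxidation, had a peak in 6 MOR-LPS and 0 SAL-LPS libraries (difference 24.7 ± 6.47, adjusted p = 0.0339). At immediate early genes 1 of 35 was called, and the median difference of the 35 was −1.32 points, with 15 above 0. This member, 43183 bp from Fos, had a peak in 8 MOR-LPS and 1 SAL-LPS libraries (difference 32.3 ± 8.63, adjusted p = 0.0345). At NF-kB and interferon response genes 1 of 23 was called, at glutamatergic synapse genes 1 of 132 and at hippocampal neuron genes 1 of 13. The differences were 9.43 points at Pdk4 and 13.6 at Fos when the 6 libraries were left out. The part of other cell types in these 2 differences was not tested further.

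In sequence, the forkhead core TGTTTAC matched in 58 of 827 higher members (7.01%) and in 4.28% of all striatum-only regions and 4.11% of all striatum regions. AP-1 matched in 10.6% of higher members, against 11.2% of all striatum-only regions. No test was made on these shares.

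Perinatal morphine without LPS gave 1 call among the striatum-only regions (0.00306%), against 0.00667% of all striatum regions. It was in the higher direction, in which 0.00167% of all striatum regions were called. None was lower, against 0.00500% of all striatum regions. The region was intronic in Mdga2, a gene for a synaptic adhesion regulator (chr12:67142267-67143446). It had a peak in 5 of 7 MOR-SAL and 0 of 10 SAL-SAL libraries, with lowest, median and highest ranks of 26.4, 72.7 and 88.4 in MOR-SAL against 19.9, 24.4 and 41.6 in SAL-SAL. The groups overlapped, since 2 MOR-SAL libraries had no peak there. In the other groups it had a peak in 1 of 15 MOR-LPS and 1 of 13 SAL-LPS libraries. It may thus have entered the consensus list through MOR-SAL, so its call is no independent support for a difference. The difference was 35.8 ± 7.06 points (adjusted p = 0.0314), and it was 34.8 points at an adjusted p of 0.165 without the 6 libraries. In lists of equal length it was 6.39 points. The next regions by p were not called, among them an intronic member of Trio, a guanine exchange factor gene, with a peak in 6 of 7 MOR-SAL and 1 of 10 SAL-SAL libraries (adjusted p = 0.220).

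For LPS after perinatal saline, limma called 0 striatum-only regions and 0 of all 60013 striatum regions (0%). At an unadjusted p under 0.05 there were 1582 members (4.84%), against 5.10% of all striatum regions. The smallest p belonged to an intronic member of Fam193a, with a peak in 9 of 13 SAL-LPS and 0 of 10 SAL-SAL libraries and ranks of 26.2, 71.3 and 92.5 against 19.9, 24.4 and 41.6 (adjusted p = 0.964).

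LPS after perinatal morphine gave 75 calls among the striatum-only regions (0.230%, against 0.253% of all striatum regions). Ranked higher were 13 (0.0398%, against 0.120%) and ranked lower 62 (0.190%, against 0.133%). MOR-LPS was also part of the first comparison, so both use the same libraries. The number of peaks averaged 65739 ± 30144 in MOR-LPS against 43372 ± 12664 in MOR-SAL, and the oligodendrocyte marker share 23.2 ± 28.9% against 3.76 ± 3.98% (SD, n = 15 and 7). When the 6 libraries were left out, 0 members were called by limma. At an unadjusted p under 0.05 there were 2399 of 32669, against 5883 with all libraries. All 75 kept their sign, as did 27112 of all 32669 members, so kept signs are no independent support.

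Among the higher members, the promoter of Bcl2l2, a survival gene of the Bcl2 family, had a peak in 12 of 15 MOR-LPS and 0 of 7 MOR-SAL libraries. Its ranks were 23.9, 85.1 and 96.3 in MOR-LPS against 25.3, 29.4 and 36.4 in MOR-SAL (difference 44.4 ± 10.9, adjusted p = 0.0415), and the groups overlapped. It was 35.9 points without the 6 libraries (adjusted p = 0.497). The promoter of Dennd4b had a peak in 13 MOR-LPS and 0 MOR-SAL libraries (difference 44.5 ± 10.9, adjusted p = 0.0415).

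Among the lower members, the Rims1 intron, in an active zone gene (chr1:22767110-22770197), had a peak in 1 of 15 MOR-LPS and 6 of 7 MOR-SAL libraries, with ranks of 13.3, 25.1 and 42.2 against 33.3, 73.1 and 93.9 (difference −40.9 ± 7.88, adjusted p = 0.00473). A Cacna1c intron, in a calcium channel gene, had a peak in 0 and 5 libraries (difference −40.3 ± 7.99, adjusted p = 0.00566), and one of Mapk10, a neuronal JNK kinase gene, in 3 and 7 (difference −45.2 ± 9.55, adjusted p = 0.0140). A region 35759 bp from Six3 (chr17:85575242-85577849) was the 1 called member at projection neuron genes, with ranks of 13.8, 25.1 and 67.1 against 27.4, 79.4 and 87.1 (difference −35.9 ± 8.59, adjusted p = 0.0322). In lists of equal length the differences were −6.95 at Rims1, −20.2 at Cacna1c, −6.24 at Mapk10 and −6.55 at the Six3 region. Each of these regions was high in MOR-SAL and may have entered the consensus list through that group, so its call is no independent support.

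The interaction asks whether the perinatal difference depended on the adult challenge. It was called at 3 striatum-only regions (0.00918%, against 0.0167% of all striatum regions), none higher (0.0117% of all striatum regions) and 3 lower (0.00500% of all striatum regions). The first, intronic in Fgf14, a gene for a regulator of sodium channels (chr14:124455034-124456644), had a peak in 0 of 15 MOR-LPS, 6 of 7 MOR-SAL, 7 of 13 SAL-LPS and 2 of 10 SAL-SAL libraries. Its median rank was 24.1 in the MOR-LPS and 44.8 in the SAL-LPS libraries, and 76.5 in the MOR-SAL and 30.6 in the SAL-SAL libraries (interaction −61.8 ± 11.8, adjusted p = 0.0203). The second was intronic in Ntm, a neuronal adhesion gene (−59.2 ± 12.2, adjusted p = 0.0371), and the third lay 34912 bp from Krt80, a keratin gene (−50.4 ± 10.6, adjusted p = 0.0395). Each had 0 peaks in 15 MOR-LPS libraries. Each may thus have entered the consensus list through other groups, in which it was high, so its call is no independent support. Leaving out the 6 libraries, the adjusted p was 0.653 at each, with values of −60.2, −59.4 and −49.5 points in the same order. In lists of equal length the values were −9.79, 0.0858 and −9.64 points, and none was called. The value of 0.0858 is also the median over all striatum regions in these lists.

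Sex was not used to choose the members, and it gave 285 calls among them (0.872%, against 0.798% of all striatum regions). Ranked higher in females were 231 (0.707%, against 0.610%) and ranked lower 54 (0.165%, against 0.188%). Of the 470 X-linked members, 8 were called (1.70%), and 7 of these were higher in females. Of the 6 libraries with a high oligodendrocyte share, 5 were female. Leaving these 6 out gave 2 calls, at Firre and Kdm6a, and leaving out MOR-LPS female 15-3 alone also gave 2. Without the 6 libraries all 285 signs were kept, as were those of 27521 of all 32669 members, so kept signs are no independent support.

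The Firre gene body, a long noncoding RNA gene of the X chromosome (chrX:50614168-50615844), had a peak in 23 of 27 female and 0 of 18 male striatum libraries. Its lowest, median and highest ranks were 26.2, 93.8 and 99.7 in females, against 13.3, 26.9 and 42.2 in males (difference 55.2 ± 7.23, adjusted p = 1.16e-07; without the 6 libraries 51.0, adjusted p = 0.000313). The groups overlapped, since 4 female libraries had no peak there. A count of 0 of 18 allows a share of up to 16.7%. The same region had a peak in 20 of 23 female and 0 of 20 male PFC libraries, 16 of 21 and 0 of 23 hippocampus libraries and 12 of 22 and 0 of 19 hypothalamus libraries. Peaks were found only in female libraries in all 4 brain regions, although only the striatum consensus list held a region there.

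Kdm6a, a histone demethylase gene known to escape X inactivation, had 2 such members. The one just upstream of the start (chrX:18160783-18162405) had a peak in 24 of 27 female and 6 of 18 male striatum libraries, with ranks of 30.6, 89.4 and 99.5 against 23.9, 37.1 and 91.5 (difference 39.6 ± 7.06, adjusted p = 0.00103; without the 6 libraries 42.2, adjusted p = 0.00957). The one at the start (chrX:18162575-18165336) had a peak in 16 female and 1 male libraries (difference 30.6 ± 6.58, adjusted p = 0.0291; without the 6 libraries 24.6, adjusted p = 0.435). In PFC the upstream member was even between the sexes, with a peak in 20 of 23 female and 18 of 20 male libraries.

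The other 4 X-linked members ranked higher in females lay at Kdm5c, Tsix, Rlim and Pbdc1. The promoter of Kdm5c, another demethylase gene that escapes X inactivation, had a peak in 20 of 27 female and 5 of 18 male striatum libraries (difference 31.1 ± 7.60, adjusted p = 0.0427). A region over Tsix, the antisense RNA of the X inactivation centre, had a peak in 10 and 0 libraries (adjusted p = 0.0459), the promoter of Rlim, a ubiquitin ligase gene of the X inactivation pathway, in 9 and 0 (adjusted p = 0.0488), and a region over the noncoding gene 5530601H04Rik next to Pbdc1 in 14 and 1 (adjusted p = 0.0467). None of these 4 was called when the 6 libraries were left out (adjusted p of 0.441 to 0.477). The Rlim promoter was more frequent in males in hippocampus (2 of 21 female and 7 of 23 male libraries) and hypothalamus (1 of 22 and 2 of 19). In PFC it had a peak in 17 of 23 female and 11 of 20 male libraries. The Kdm5c, Tsix and Pbdc1 regions were more frequent in females in each brain region, though Kdm5c was near even in PFC (18 of 23 and 14 of 20). The 1 X-linked member lower in females (chrX:23172236-23174303) had a peak in 3 female and 8 male libraries (adjusted p = 0.0459). Tsix overlaps Xist on the other strand, and peaks carry no strand, so the 2 genes cannot be told apart there.

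**Figure D5:**
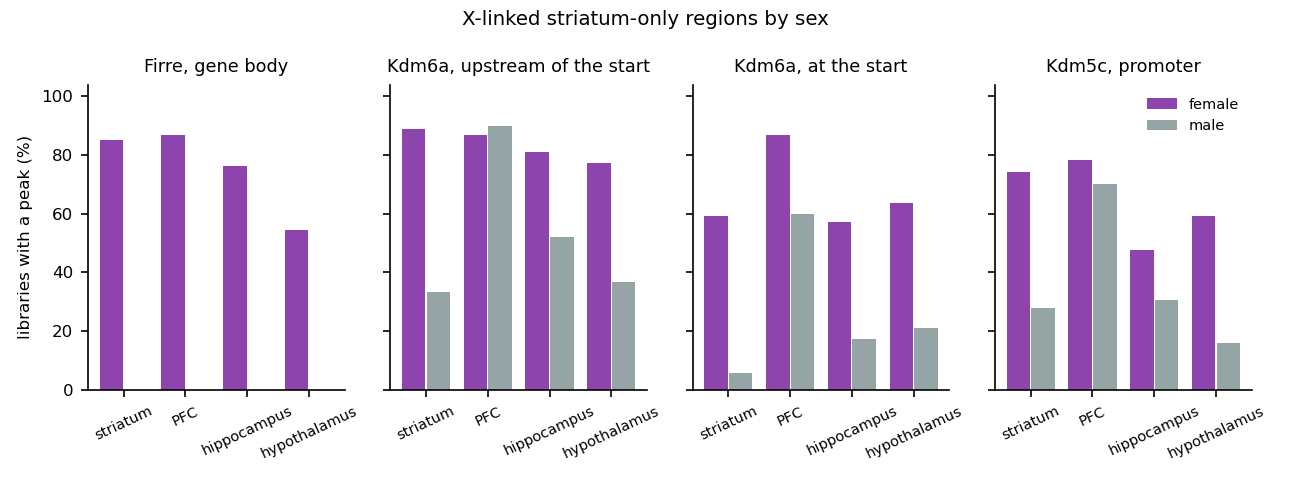
Percentage of female and male libraries with a peak at 4 X-linked striatum-only regions, by brain region. At Firre no male library has a peak in any brain region, while 85.2% of female striatum libraries do, and the sexes are near even in PFC at the upstream Kdm6a region (87.0% of female and 90.0% of male libraries).

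The other members called by sex were autosomal. A member in an intron of Iqck, nearest to Knop1, had a peak in 22 of 27 female and 7 of 18 male libraries (difference 35.1 ± 7.41, adjusted p = 0.0232). A region 2794 bp from Ctr9, a gene of the PAF1 transcription complex, had a peak in 14 and 0 libraries, with ranks of 19.9, 47.4 and 96.9 against 13.3, 26.9 and 42.2 (difference 31.5 ± 6.87, adjusted p = 0.0338). Of those lower in females, an intronic member of Gpr20, an orphan receptor gene, had a peak in 1 of 27 female and 9 of 18 male libraries (difference −25.0 ± 5.57, adjusted p = 0.0339), and a region 27577 bp from the histone deacetylase gene Hdac4 in 2 and 10 (difference −24.6 ± 5.58, adjusted p = 0.0365). With the 6 libraries left out, the differences were 32.3 at Knop1, 21.9 at Ctr9, −24.9 at Gpr20 and −25.1 at Hdac4, each at an adjusted p of 0.435.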

How the data were processed

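H3K27ac peak lists of 174 libraries and 4 consensus lists were used. Per the submitters' processing notes, reads were trimmed with Trim Galore 0.6.7, aligned to mm10 with Bowtie2 2.4.5 and handled with SAMtools 1.15.1 and bedtools, and peaks were called by the authors in every library (MACS2 2.2.7.1, q-value 0.05). The deposited columns give a peak's −log10 p and −log10 q. Also deposited were its fold enrichment, a ratio over local background, and a score that MACS2 derives from the −log10 q. The authors made the consensus lists with DiffBind 3.10.1 and stated that peaks present in at least 50% of samples were kept, but 15.4% of the striatum-only regions met this over all striatum libraries and 42.2% did within at least 1 group. They also describe a filter that kept peaks with enough reads in most samples of any single condition. The lists hold no read counts, so neither a count test nor the authors' fit with DESeq2 was run. Depth is therefore given as the number of peaks, and intervals for reads are unknown.

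Striatum-only regions were found by overlap of 1 bp. In each library a striatum region was given the −log10 p of its strongest overlapping peak, or 0, and ranked from 0 to 100. Ranks were compared by limma 3.58.1 (R 4.3.3) with a trend, terms for group and sex, two-sided, with Benjamini-Hochberg adjustment over 60013 regions. Lists of equal length keep the 10811 strongest peaks by −log10 p. Marker shares and reduced lists use 10000 peaks, and 1 PFC library (SAL-SAL female 9-2, 4371 peaks) was left out of these. Of 2 hippocampus libraries with identical lists 1 was counted. Genes are those with the nearest protein-coding TSS within 100 kb in GENCODE M21, which need not be the target. Promoters lie within 1 kb of a TSS. Sequences are RefSeq GRCm38.p6, in which 3 members lie off the assembled chromosomes and were not searched.

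Members and gene lists were chosen with earlier results of these data known. Regions were named as the 10 with a peak in most striatum libraries, the 5 widest, the genes with most members, the most frequent member per listed gene, up to 10 called regions per direction and comparison and called members of the lists, and others are said to be picked after their values were seen. Libraries share an identifier prefix across the adult agents but never across the perinatal ones, and the labels do not give its meaning. In a random sample of regions, ranks within a prefix did not correlate beyond group and sex (−0.0003). The paper states that litter was nested in perinatal treatment and was left out of its model. Litter was not a term of the main fit here either. The rank test was tested on simulated data. Some genes are not reported here.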

Additional observations from a re-analysis of the deposited data

Results flagged for a closer look

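Some groups held 1 library far from the others by Dixon's test, which flags about 1 in 20 groups by chance when values are normal. Of 66 groups examined, 12 were so flagged. Ranks at single regions are not normal, since libraries without a peak are tied. The regions were also named from comparisons of these same libraries, so the 12 cannot be read against that rate. In SAL-SAL, female 9-4 had an oligodendrocyte marker share of 73.7% (next 5.26%), a median rank of 88.2 over the oligodendrocyte members (next 48.6) and a rank of 84.9 at the Rps6kc1 intron (next 41.6). Other SAL-SAL libraries stood apart at single regions: male 3-0 with a rank of 71.6 at the Trio intron (next 41.6), female 10-3 with 41.6 at the Plekhh3 promoter (next 69.1), male 3-2 with 87.1 at the Cacna1c intron (next 53.1), male 5-3 with 82.2 at the F13a1 intron (next 49.7) and female 9-2 with 74.8 at the Ntm intron (next 48.6). In MOR-SAL, female 15-4 had a rank of 71.9 at the region near Rapgefl1 (next 36.4) and of 35.2 at a region on chromosome 7 (next 73.2), male 8-0 had 64.7 at the Tle1 intron (next 36.4) and female 15-0 had 29.4 at the Fgf14 intron (next 70.5).

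The interaction term in limma was called at 3 members: −61.8 points at the Fgf14 intron (adjusted p = 0.0203), −59.2 at the Ntm intron (adjusted p = 0.0371) and −50.4 near Krt80 (adjusted p = 0.0395). These members may have entered the consensus list through the groups in which they were high, so the calls are no independent support for a difference. All 3 calls were lost in lists of equal length, with the number of peaks or the oligodendrocyte share as a term, and without the 6 libraries of high oligodendrocyte share.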

How the results depend on the processing

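With lists of equal length no striatum-only region was called in any comparison, the cause not tested, and the interaction at the Ntm intron (chr9:29432224) reversed to 0.0858 points. Without the 6 libraries of high oligodendrocyte share the member counts were 0 for MOR-LPS against SAL-LPS, 0 for MOR-SAL against SAL-SAL, 0 for MOR-LPS against MOR-SAL, 0 for the interaction and 2 for sex. With that share as a term they were 0, 1, 3, 0 and 2 in the same order. With the number of peaks as a term, MOR-LPS against MOR-SAL had 16, the interaction 0 and sex 557. Peaks with a −log10 q of at least 3 gave 384 for MOR-LPS against SAL-LPS, 0 for MOR-SAL against SAL-SAL and 3 for sex. A filter on regions with a peak in at least 20% of striatum libraries gave 0 for MOR-SAL against SAL-SAL and 655 for sex. Without the sex term there were 0 for MOR-LPS against SAL-LPS, 46 for MOR-LPS against MOR-SAL and 1 for the interaction. SAL-LPS against SAL-SAL had 0 under each alternative run.

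Leaving out 1 library at a time gave 0 to 2186 for MOR-LPS against SAL-LPS, with 0 in 7 of 45 fits (without MOR-LPS female 15-3, 16-0, 16-2 or 7-1, or SAL-LPS female 10-0, 10-2 or 4-4) and 2186 without MOR-LPS female 12-2. The other ranges were 0 to 1 for MOR-SAL against SAL-SAL (0 in 13 fits), 31 to 154 for MOR-LPS against MOR-SAL (31 without MOR-LPS female 16-2, 154 without 12-2), 1 to 12 for the interaction and 2 to 1811 for sex (2 without MOR-LPS female 15-3, 1811 without 12-2). With the identifier prefix as replicate block, the counts were 913, 1, 0, 75, 3 and 289 in the order of the report, and no call at a named region was lost. Of 70 named results, 63 were no longer called and 1 reversed in lists of equal length (the other 6 were not called to begin with), and calls were lost at 58 with the oligodendrocyte share as a term and 62 without the 6 libraries.

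The number of striatum-only regions was 2832 with the striatum list reduced to the length of the PFC list, and 5974 when a region needed a peak in under 20% of libraries of each other brain region. With 10000 peaks per library the mean share of members with a peak was 4.74% in striatum, 2.91% in PFC, 1.96% in hippocampus and 4.36% in hypothalamus. Tied ranks of regions without a peak limit what a difference in rank can show.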

Other observations

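On the X chromosome lay 470 striatum-only regions (1.44%), against 0.848% of striatum regions that overlapped another list. PFC had the highest share at 342 of the 470 and striatum at 59.

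Members at genes of thalamic neurons, a cell type not native to striatum, were 22 of 29 striatum regions (75.9%, against 54.4% of all striatum regions), with median shares of 25.6% in striatum, 11.6% in PFC, 4.55% in hippocampus and 17.1% in hypothalamus. The member near Rora, a nuclear receptor gene, had a peak in 68.9% of striatum, 60.5% of PFC, 2.27% of hippocampus and 12.2% of hypothalamus libraries. At genes of striatal interneurons there were 9 members of 12 striatum regions, and the Pvalb promoter, of a calcium buffer of fast-spiking interneurons, had a peak in 33.3% of striatum, 4.65% of PFC, 15.9% of hippocampus and 58.5% of hypothalamus libraries.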
